A study of Mus musculus with 38 samples.

Results

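The genes examined here encode the proteasome and the proteins that assemble and regulate it. They were chosen by symbol alone, as those that start with Psm, a letter from a to g and a digit, with names ending in -ps left out. This took 49 of 25965 genes of the RNA table, and the same 49 of 25888 genes of the promoter table, which hold 200 of its 72923 windows. Psmc3ip was taken by its symbol but encodes a cofactor of meiotic recombination, so 48 of the 49 belong to the proteasome.

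The 26S proteasome degrades proteins tagged with ubiquitin. Its 20S core is a barrel of outer alpha rings and inner beta rings, and the beta subunits Psmb5, Psmb6 and Psmb7 carry the chymotrypsin-like, caspase-like and trypsin-like active sites. Interferon induces the counterparts Psmb8, Psmb9 and Psmb10, which replace them to form the immunoproteasome. The 19S cap recognises and unfolds substrates with a ring of ATPases (Psmc) and a set of non-ATPases (Psmd). The core can instead be capped by the activators Psme1 and Psme2, which interferon also induces, by the nuclear activator Psme3 or by Psme4.

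The cells were neural stem/progenitor cells (NSPCs), the dividing precursors of the adult subventricular zone (SVZ), grown as neurospheres from young adult (3 months) and aged (18 months) mice. In C57BL/6JBabr mice the derivation was made 3 times at each age, on different days, from pooled SVZ tissue of several male mice, and derivation 1, 2 or 3 below stands for the libraries of that replicate number at both ages. In C57BL/10 mice from another facility there was 1 RNA library per age. RNA, the histone marks H3K4me3 and H3K27me3, and DNA methylation by bisulfite (BS) and oxidative bisulfite (oxBS) sequencing were measured in the second passage. No transgene, deletion or drug was given to any group.

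The 8 RNA libraries held between 16952486 and 41053972 reads, of which 65.5 to 69.3% fell on genes. Markers of NSPCs (Nes, Sox2, Vim and 5 others) summed to between 6537 and 9395 RPM (reads scaled to the library total) in every library. A list of 8 microglial and other immune markers summed to 8.57, 8.91 and 11.99 RPM in the young adult C57BL/6JBabr libraries, 7.75, 9.75 and 10.5 RPM in the aged ones, and 12.2 and 11.3 RPM in the young adult and aged C57BL/10 libraries. Ptprc, which all leukocytes carry, had 0 reads in all 8 libraries, which allows at most 0.0731 to 0.177 RPM depending on depth. Others of that list were detected in every library, Csf1r with 95 to 230 reads, Cd68 with 48 to 163 and P2ry12 with 6 to 26. Aif1, Cx3cr1, Itgam and Tmem119 had 0 to 5 reads. Neurospheres are mixed, and from such RNA fewer cells of a type and less RNA per cell cannot be told apart.

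Transcripts of 47 of the 49 genes had a mean of at least -2 on the log2 RPM scale and were tested. The other 2 are tissue-specific core subunits. Psma8, the alpha subunit of the testis proteasome, had 0 reads in every library, and Psmb11, the beta subunit of the thymic proteasome, had between 0 and 3.

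Compared per kilobase of exon, the constitutive subunits of the core and those of the cap lay in overlapping ranges. Mean RPKM (RPM divided by the exon length in kilobases) over the 6 C57BL/6JBabr libraries was between 14.1 and 62.4 for the 7 alpha subunits, with Psma6 highest. It was between 19.6 and 68.4 for the 7 constitutive beta subunits and between 13.0 and 51.6 for the 6 ATPases. The 11 non-ATPases of the cap lay between 8.58 for Psmd11 and 51.8 for Psmd2.

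Most of the genes that regulate or assemble the complex lay in a lower range, apart from Psme3. Psme3 was at 25.2 RPKM, Psme4 at 9.83, Psme1 at 9.22, Psme2 at 7.97 and the inhibitor Psmf1 at 3.25. The 4 chaperones of core assembly (Psmg1 to Psmg4) lay between 4.24 and 13.9 RPKM, and the 3 chaperones of cap assembly (Psmd5, Psmd9, Psmd10) between 3.03 and 8.43. The plot of levels by gene shows each library.

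**Figure D1:**
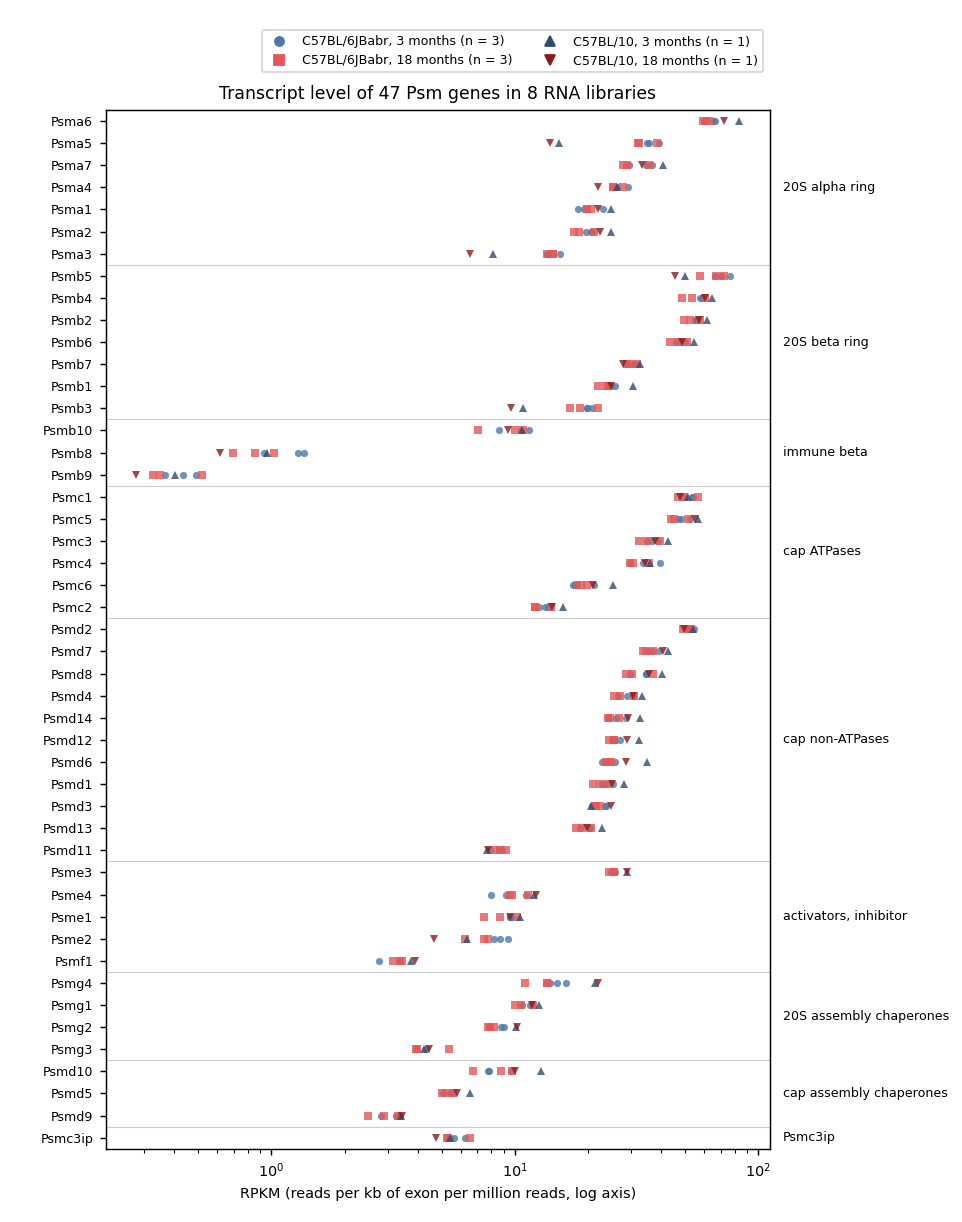
Transcript level of the 47 tested genes, grouped by role, as RPKM on a log axis, with 1 point per RNA library (C57BL/6JBabr at 3 and 18 months, 3 libraries each; C57BL/10, 1 library each). Psmb8 and Psmb9 lie apart at the low end, and the C57BL/10 points of Psma5, Psma3 and Psmb3 lie below those of C57BL/6JBabr.

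The immune subunits were the lowest of the core genes tested and differed widely among themselves. Psmb5 had the highest mean RPKM of the 47 genes, 71.2 ± 5.07 at 3 months and 65.7 ± 7.43 at 18 months (SD, n = 3 libraries each). Its immune counterpart Psmb8 was at 1.19 ± 0.232 and 0.860 ± 0.166 RPKM (SD, n = 3), or 1.40, 1.78 and 1.84% of Psmb5 in the young adult libraries and 1.18, 1.20 and 1.54% in the aged ones. Psmb9, at 0.431 ± 0.0631 and 0.398 ± 0.106 RPKM (SD, n = 3), was the lowest gene tested. It was counted with 25 to 75 reads per library, and Psmb8 with 51 to 137, so both are less precise than the other subunits. Psmb10 was closer to its counterpart in RPKM, at 34.1 ± 5.56% of Psmb7 at 3 months and 30.9 ± 6.19% at 18 months (SD, n = 3). These levels and ratios rest on annotated exon lengths, 899 bases for Psmb5, 3381 for Psmb8, 3421 for Psmb7 and 1705 for Psmb10. Before division by length, Psmb5 was not highest, with a mean of 5.94 log2 RPM against 7.71 for Psmd2. In the young adult library of derivation 1, Psmb8 had 129 reads against 2459 for Psmb5, and Psmb10 had 602 against 4366 for Psmb7. The contrast between the ratios was narrower in these reads.

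Promoter sequences of constitutive and interferon-induced members are shown because the methylation calls described further on were read from them. RefSeq promoters of build GRCm38.p6 were found for 41 of the 49 genes, 44 promoters in all, and the 250 bases before each start were searched on both strands. Capitals mark the letters that match a searched motif: TGACNNNGC, the core of the antioxidant response element, in Psmb5 (chr14:54617996-54618245, minus strand) and Psmb6 (chr11:70525107-70525356, plus strand); TTCNNNGAA, of the type bound by interferon-activated STAT proteins, in Psmb8 (chr17:34197945-34198194, plus strand); CCAAT and the GC box GGGCGG in Psmb9 (chr17:34187331-34187580, minus strand); and GGGCGG alone in Psme2 (chr14:55591102-55591351, minus strand). Psmb6 also holds GGGCGG. Each sequence ends at the base before the start, and the match in Psmb6 runs up to that base.
Psmb5: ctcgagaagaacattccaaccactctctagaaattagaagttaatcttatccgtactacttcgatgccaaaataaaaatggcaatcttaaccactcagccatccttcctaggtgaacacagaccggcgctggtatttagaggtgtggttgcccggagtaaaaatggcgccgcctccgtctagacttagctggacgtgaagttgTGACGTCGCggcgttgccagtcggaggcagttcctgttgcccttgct
Psmb6: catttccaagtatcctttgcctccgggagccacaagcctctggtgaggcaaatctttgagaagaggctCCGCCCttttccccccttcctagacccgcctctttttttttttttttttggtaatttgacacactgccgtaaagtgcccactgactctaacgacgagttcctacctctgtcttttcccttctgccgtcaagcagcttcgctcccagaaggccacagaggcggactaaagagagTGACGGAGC
Psmb8: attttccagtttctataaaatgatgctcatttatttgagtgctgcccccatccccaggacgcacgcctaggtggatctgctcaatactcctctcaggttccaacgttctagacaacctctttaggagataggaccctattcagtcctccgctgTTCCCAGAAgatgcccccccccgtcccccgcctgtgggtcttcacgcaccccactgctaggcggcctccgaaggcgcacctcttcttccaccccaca
Psmb9: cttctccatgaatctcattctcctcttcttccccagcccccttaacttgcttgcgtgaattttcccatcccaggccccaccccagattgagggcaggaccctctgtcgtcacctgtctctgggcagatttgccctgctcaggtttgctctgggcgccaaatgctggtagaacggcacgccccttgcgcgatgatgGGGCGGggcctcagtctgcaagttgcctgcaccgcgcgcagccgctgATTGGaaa
Psme2: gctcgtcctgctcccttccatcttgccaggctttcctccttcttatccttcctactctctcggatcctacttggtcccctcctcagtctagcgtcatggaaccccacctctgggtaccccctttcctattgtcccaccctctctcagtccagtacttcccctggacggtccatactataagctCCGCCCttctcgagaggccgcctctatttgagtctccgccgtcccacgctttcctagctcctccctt

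Some of these letters were more common in the member promoters than in others. TGACNNNGC occurred in 5 of the 44 member promoters (11.4%) and in 10.2% of all 32851 promoters, and CCAAT in 34.1 and 33.8%. The type bound by interferon regulatory factors (TTTC, 2 bases of any kind, TTTC) occurred in 3 of 44 (6.82%) against 2.98%. Those 3 were promoters of Psmb3, Psmd4 and Psmd9, and not of the immune subunits or of Psme1 and Psme2. TTCNNNGAA occurred in 2 of 44 against 7.02%, in Psmb8 and Psmg1. GGGCGG occurred in 23 of 44 (52.3%) against 32.7%, and the member promoters held a median of 14.5 CpG sites against 6. These are matches of letters and not binding sites.

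The first comparison asks whether transcripts of the proteasome differed between NSPCs of aged and young adult mice. No member passed the test. In C57BL/6JBabr NSPCs, limma called 0 of the 47 genes at an adjusted p of 0.05, as it called 0 of all 14858 genes tested (0%). At an unadjusted p under 0.05 there was 1 member, Psme2, against 258 of all genes (1.74%). When the fit paired libraries by their replicate number (block), limma called 74 of all genes (0.498%) and again 0 members, with 2 members at an unadjusted p under 0.05 (Psme2 and Psmb8) against 8.27% of all genes. edgeR on the recovered reads called 0 genes and DESeq2 called 4, none of them members. The study itself reported genes that differed between these ages at a false discovery rate under 0.05, from a limma moderated test. Why its count differs from that of the limma fit here was not tested.

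Psme2, which forms the interferon-induced activator ring together with Psme1, had the lowest p. Its log2 RPM was 3.86, 3.94 and 4.05 in the young adult libraries and 3.77, 3.46 and 3.72 in the aged ones, so the ages did not overlap. The difference of aged from young adult was -0.30 (SE 0.12, unadjusted p = 0.0401, adjusted p = 1.00 by limma; with the block, unadjusted p = 0.0105 and adjusted p = 0.337). Its partner Psme1 was at 4.40, 4.40 and 4.43 in young adult and 4.50, 4.05 and 4.26 in aged NSPCs, a difference of -0.14 with overlapping ages. Psme2 has 1 near-identical copy elsewhere in the genome, so its reads may be split by the counting.

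Psmb8, the immune counterpart of Psmb5, had the widest difference of the 47 members but did not pass. Its log2 RPM was 1.65, 2.20 and 2.13 in young adult and 1.54, 1.23 and 1.80 in aged NSPCs. The aged library of derivation 2 was lowest and the ages overlapped, since the young adult library of derivation 1 lay below the aged library of derivation 3. The difference was -0.47 (SE 0.22, unadjusted p = 0.0677; with the block 0.0202, adjusted p = 0.461 by limma). Within derivations 1, 2 and 3 it was -0.12, -0.97 and -0.33.

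The ages overlapped for the other immune subunits. Psmb9 was at 0.42, 0.67 and 0.85 log2 RPM in young adult and 0.35, 0.25 and 0.93 in aged NSPCs, a difference of -0.14 (SE 0.26). Psmb10 was at 3.87, 4.17 and 4.29 against 4.09, 3.59 and 4.21, a difference of -0.15 (SE 0.18). For both genes the aged library of derivation 2 was the lowest of the 6.

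**Figure D2:**
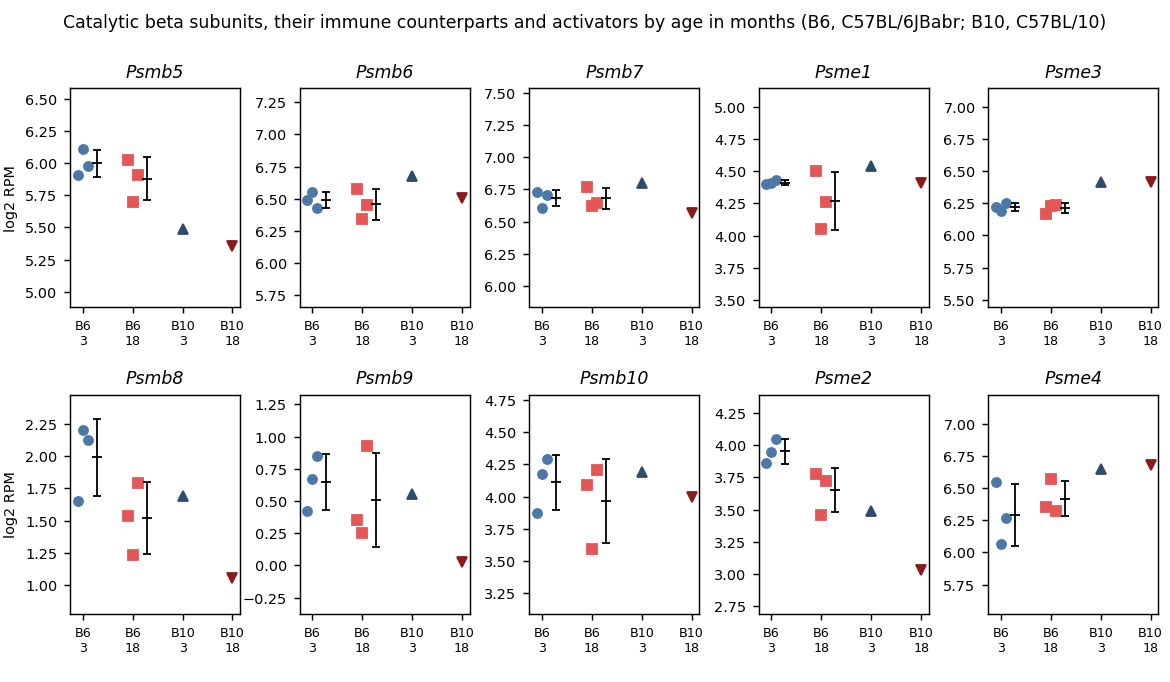
Level in log2 RPM of Psmb5, Psmb6, Psmb7, their immune counterparts Psmb8, Psmb9, Psmb10, and the activators Psme1 to Psme4, with 1 point per library and mean ± SD of the 3 C57BL/6JBabr libraries (B6) at 3 and 18 months. C57BL/10 (B10) has 1 library per age and no error bar, and every panel spans the same number of log2 units. The ages of C57BL/6JBabr do not overlap for Psme2 and overlap for the other genes.

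The constitutive catalytic subunits spanned narrower ranges. Psmb5 was at 5.90, 6.11 and 5.98 log2 RPM in young adult and 6.03, 5.70 and 5.91 in aged NSPCs. Psmb6 was at 6.49, 6.55 and 6.43 against 6.58, 6.34 and 6.45, and Psmb7 at 6.73, 6.61 and 6.71 against 6.77, 6.62 and 6.65. The ages overlapped for all 3 genes, with differences of -0.12, -0.03 and 0.00.

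The activators outside the interferon-induced pair did not pass either. Psme3, which forms a nuclear activator ring, was at 6.22, 6.19 and 6.25 log2 RPM in young adult and 6.17, 6.23 and 6.24 in aged NSPCs, a difference of -0.01. Psme4, whose product caps the core as a single chain, was at 6.55, 6.07 and 6.26 against 6.36, 6.57 and 6.32, a difference of 0.13. The ages overlapped for both.

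The remaining members with the lowest p in the age test were Psmg4, Psmb4 and Psmb1. Psmg4, a chaperone of core assembly, was at 2.95, 3.17 and 3.05 log2 RPM in young adult and 2.92, 2.62 and 2.91 in aged NSPCs, a difference of -0.24 (SE 0.14, unadjusted p = 0.126 by limma). Psmb4, a non-catalytic beta subunit, was at 6.84, 6.86 and 6.81 against 6.88, 6.56 and 6.70, a difference of -0.12 (SE 0.096). Psmb1, another, was at 6.83, 6.88 and 6.80 against 6.80, 6.66 and 6.77, a difference of -0.10 (SE 0.079). With 1 library left out, the difference ranged from -0.30 to -0.14 for Psmg4, -0.20 to -0.05 for Psmb4 and -0.12 to -0.05 for Psmb1. The ages did not overlap for Psmg4 and Psmb1 and overlapped for Psmb4. In all, the ages did not overlap for 3 of the 47 members, all lower in aged, against 5.20% of all genes (2.05% lower and 3.14% higher in aged).

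Most members had a small negative difference, and its size depended on single libraries. The difference was below 0 for 41 of 47 members and above 0 for 6, with a median of -0.06, while 50.6% of all genes were above 0 with a median of 0.00. All 7 alpha, all 7 constitutive beta and all 3 immune subunits were below 0. Within derivation 1, 28 of the 47 were above 0 (median 0.02), against 8601 of all 14858 genes (median 0.03). Within derivation 2 it was 11 members (median -0.17) against 6581 of all genes (median -0.04). Within derivation 3 it was 14 members (median -0.03) against 7881 of all genes (median 0.01). Without the aged library of derivation 2, 16 of the 47 were above 0, against 8537 of 14845 genes (median 0.02). The median over the proteasome genes then went from -0.06 to -0.02, while without the aged library of derivation 1 it was -0.12.

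**Figure D3:**
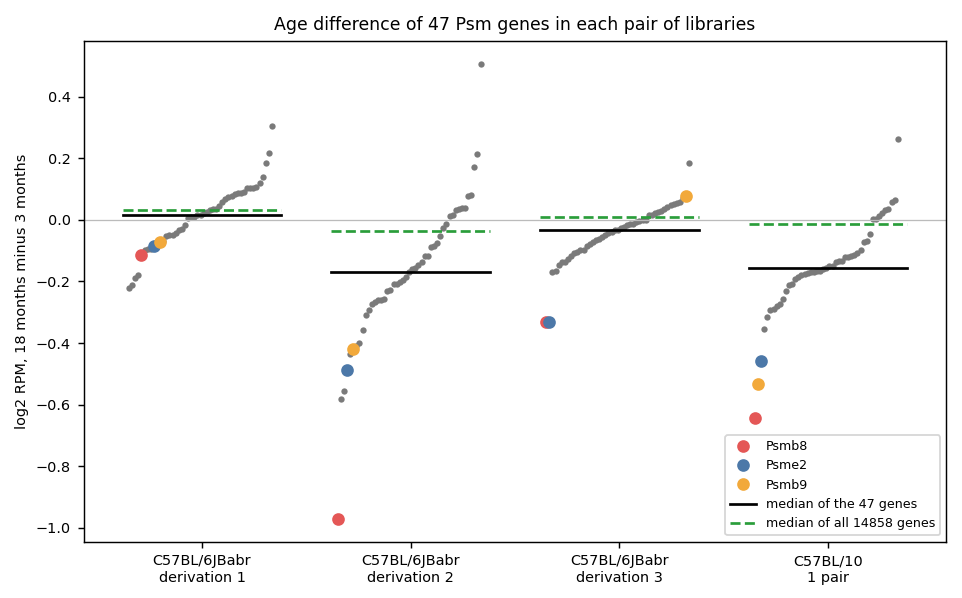
Difference in log2 RPM of 18 from 3 months for the 47 tested genes, each point 1 gene, within each of the 3 C57BL/6JBabr derivations and in the single C57BL/10 pair. Solid lines give the median of the 47 genes and dashed lines that of all 14858 genes. Psmb8 and Psme2 lie below 0 in all 4 pairs, and the median of the 47 genes lies farthest below that of all genes in derivation 2 and in the C57BL/10 pair.

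C57BL/10 NSPCs gave 1 further pair of libraries, which allows no test. Psmb8 was at 1.69 log2 RPM in the young adult and 1.05 in the aged library, Psmb9 at 0.56 and 0.02, and Psme2 at 3.49 and 3.03. Psmb8 was the only member that differed by at least 1.5-fold, which 10.2% of all genes did. Of the 47 members 9 were above 0 (median -0.16), against 47.9% of all genes (median -0.01).

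Across the 3 derivations and this pair, 9 of 47 members (19.1%) were lower in the aged library every time, against 10.4% of all genes. They were the alpha subunits Psma4, Psma5, Psma6 and Psma7, the beta subunits Psmb1 and Psmb8, the cap subunits Psmd1 and Psmd7, and Psme2. No member was higher in aged every time, against 12.2% of all genes. The members share their libraries, so these counts are not independent from gene to gene.

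The second comparison asks whether members differed between derivations. The sources do not say that young adult and aged libraries of the same number were made on the same day. Their spread was small: the median SD over the 6 C57BL/6JBabr libraries was 0.105 log2 units for the members and 0.168 for all genes. The limma F test of the replicate number, with age in the model, called 1 of 47 members, against 22.0% of all genes, and 2 had an unadjusted p under 0.05, against 35.7%. That member was Psma7, an alpha subunit, at 6.81, 6.74 and 6.49 log2 RPM in young adult and 6.77, 6.47 and 6.41 in aged NSPCs. It was lower in derivation 3 than in derivation 1 by 0.33 log2 units, with an adjusted p of 0.0356.

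The members with the next lowest p did not pass. Psmd10, a chaperone of cap assembly also known as gankyrin, was at 3.83, 3.53 and 3.51 log2 RPM in young adult and 3.84, 3.30 and 3.69 in aged NSPCs (adjusted p = 0.0753 by limma). Psma5, at 5.69, 5.53 and 5.56 against 5.67, 5.41 and 5.41, Psmd8, at 6.73, 6.73 and 6.51 against 6.82, 6.46 and 6.53, and Psmc6, at 6.21, 5.95 and 5.93 against 6.12, 6.03 and 5.98, had adjusted p-values of 0.141, 0.147 and 0.148 by limma. In each of these 4 genes both libraries of derivation 1 were the highest at their age, level with derivation 2 for Psmd8 in young adult. The member count and that over all genes both changed when single libraries were left out. Such a fit leaves 1 library in a derivation, so its count is a weak guide.

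Markers of NSPCs and of some other cells moved with the derivations. The 4 oligodendrocyte markers summed to 60.4 and 69.0 RPM in the young adult and aged libraries of derivation 2, of a range of 17.7 to 69.0 RPM over the 8 libraries, and 4 of 4 passed the F test. The 3 ependymal markers in the table summed to 98.3 and 92.0 RPM in derivation 3, of a range of 30.4 to 98.3 RPM, and 2 of 2 tested passed. Of the 8 NSPC markers 4 passed, against 22.0% of all genes. Of the other markers tested, 0 of 3 microglial and other immune, 0 of 2 endothelial and 0 of 3 neuronal ones passed. The part of cell composition in the differences of Psma7 and the other members was not tested.

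The third comparison sets C57BL/10 against C57BL/6JBabr, over both ages. Here some members passed the test. Psma5, Psma3, Psmb3, Psmb5 and Psme2 were lower in C57BL/10, and 8 others were higher. The limma test, with age in the model, called 13 of 47 members, 8 higher and 5 lower, against 29.7% of all 14828 genes (18.2% higher, 11.5% lower). Strain, facility and cohort cannot be told apart, and C57BL/10 rests on 1 library per age, so its spread is taken to equal that of the other groups. Leaving out a C57BL/10 library leaves 1 library of that strain. Without the young adult one the differences of Psma5, Psma3 and Psmb3 were -1.29, -1.10 and -0.97. Without the aged one they were -1.26, -0.80 and -0.90. With the replicate number of the C57BL/6JBabr libraries as a block, an alternative added after the data were seen, 26 members and 7679 of all genes were called. Strain lies between derivations, so the p-values of that fit rest on a spread within derivations and are too small.

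Markers of other cells also moved with strain. Of the 3 oligodendrocyte markers tested 2 were lower in C57BL/10, Mbp (-3.27) and Mag (-3.62), and of the 4 neuronal ones Snap25 was higher (1.08). None of the 8 NSPC markers or the 3 microglial and other immune markers tested passed, with 3 NSPC markers at an unadjusted p under 0.05. The part of these cells in the strain differences of the members was not tested.

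The 3 members with the widest fall are non-catalytic subunits of the core. Psma5 was between 5.41 and 5.69 log2 RPM in the 6 C57BL/6JBabr libraries and at 4.33 and 4.21 in C57BL/10, a difference of -1.27 (SE 0.094, adjusted p = 4.49e-06 by limma). Psma3 was between 5.72 and 5.90 against 4.99 and 4.67, a difference of -0.95 (SE 0.092, adjusted p = 4.06e-05). Psmb3 was between 5.27 and 5.65 against 4.63 and 4.48, a difference of -0.94 (SE 0.10, adjusted p = 9.16e-05). The strains did not overlap for these genes, and all 3 stayed lower with either C57BL/10 library left out. In all, 22 of 47 members did not overlap between strains (17 higher and 5 lower in C57BL/10), against 44.6% of all genes (31.6 and 13.0%).

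Psmb5, the subunit with the chymotrypsin-like site, fell by less. It was between 5.70 and 6.11 log2 RPM in C57BL/6JBabr and at 5.49 and 5.35 in C57BL/10, a difference of -0.51 (SE 0.098, adjusted p = 0.00440 by limma). Psme2 also fell, with a difference of -0.54 (SE 0.12, adjusted p = 0.00928), although its young adult C57BL/10 library, at 3.49, lay above the lowest C57BL/6JBabr library, at 3.46. The strains did not overlap for Psmb5. Psmb6 and Psmb7, with the other active sites, did not pass, at 6.68 and 6.51 and at 6.80 and 6.57 log2 RPM in C57BL/10.

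Among the members that rose, Psmg4 stood first. It was between 2.62 and 3.17 log2 RPM in C57BL/6JBabr and at 3.57 and 3.60 in C57BL/10, a difference of 0.65 (SE 0.14, adjusted p = 0.00717 by limma). The other 7 that rose were Psmd6 (0.39), Psma6 (0.32), Psmg2 (0.31), Psma2 (0.27), Psmd14 (0.27), Psmd12 (0.26) and Psme3 (0.20). Psmd14 encodes the enzyme of the cap that removes ubiquitin from substrates. The immune subunits did not pass, with differences of -0.38 for Psmb8, -0.29 for Psmb9 and 0.06 for Psmb10.

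The members that rose depended on the scaling. In the deposited values the median difference of all genes was 0.17, and 71.2% of genes were above 0, close to the 35 of 47 members above 0 and their median of 0.16. With TMM factors, an alternative added after the data were seen, the all-gene median was 0.01, 24 of 47 members were above 0, and only 8 members were called. Of these Psmg4 was higher (0.49) and 7 were lower: Psma5 (-1.43), Psma3 (-1.11), Psmb3 (-1.09), Psme2 (-0.70), Psmb5 (-0.67), Psma4 (-0.31) and Psmd11 (-0.31). Under TMM factors 669 of all genes were higher and 1952 lower, against 2697 and 1708 in the deposited scaling.

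All members that fell have near-identical copies elsewhere in the genome. The coding sequence of 10 of the 47 members aligned outside its own gene over at least 80% of its length at 95% identity or more. Psmb3 had 4 such copies (best identity 98.4%), Psma3 had 3 (99.9%), Psma5 had 2 (98.9%), Psmb5 had 1 (98.9%) and Psme2 had 1 (99.3%). The remaining 5 members with copies were Psma2, Psma4, Psmc1, Psmd2 and Psmd11.

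All 5 members that fell are among those 10 (50%), against 0 of the 37 members without a copy. The same split was present in all genes, of which 699 of 1171 with a copy were lower in C57BL/10 (59.7%), with a median of -0.67, and 506 of 12081 without a copy (4.19%), with a median of 0.20. With TMM factors the counts were 7 of 10 members with a copy and 0 of 37 without, and 64.4 and 5.65% of all genes. Reads of a gene and its copies may be assigned in more than 1 way, so the levels of these 10 genes are uncertain, and the part of this in the strain differences was not tested.

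**Figure D4:**
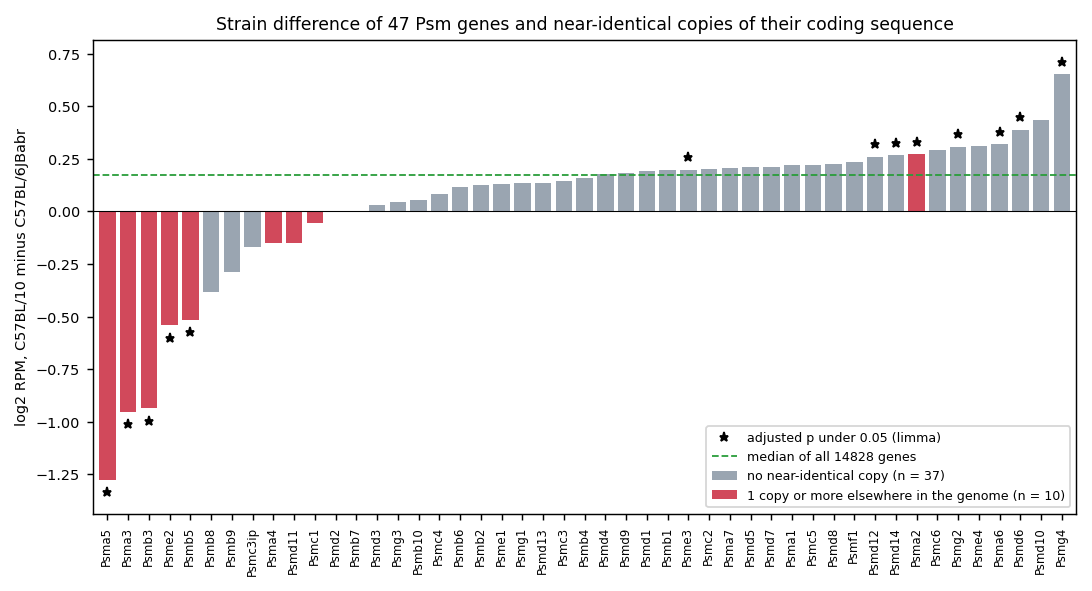
Difference in log2 RPM of C57BL/10 from C57BL/6JBabr for the 47 tested genes, as bars ordered by size, with the genes that have at least 1 near-identical copy in red. Stars mark an adjusted p under 0.05 by limma in the deposited scaling, and the dashed line is the median of all 14828 genes (0.17). The 5 starred bars below 0 are all red, and with TMM factors Psmg4 is the only starred gene above 0 that stays called.

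The fourth comparison asks whether the age difference of a member differed between strains. The interaction was called by limma for 0 of 47 members, against 0.00674% of all genes (1 gene), and 0 members had an unadjusted p under 0.05, against 240 of all genes (1.62%). With the replicate block, also added after the data were seen, 36 of all genes and 0 members were called. That fit had 3 members at an unadjusted p under 0.05, against 942 of all 14828 genes. edgeR called 0 genes. The C57BL/10 age difference comes from 1 library per age, so only wide differences could pass.

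The lowest p were those of the cap subunits Psmd3 and Psmd6. Psmd3 was at 6.69, 6.86 and 6.87 log2 RPM in young adult and 6.80, 6.72 and 6.74 in aged C57BL/6JBabr NSPCs, and at 6.68 and 6.94 in C57BL/10 (interaction 0.32, SE 0.16, unadjusted p = 0.0884 by limma). Psmd6 was at 6.17, 6.05 and 6.00 against 6.12, 6.09 and 6.06, and at 6.62 and 6.33 in C57BL/10 (interaction -0.30, SE 0.16, unadjusted p = 0.0904 by limma). Psma3, Psmc6 and Psmb7 followed, at -0.31, -0.28 and -0.23. None of these interactions passed.

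Genes that act with the immunoproteasome were examined as a list of 13 antigen processing genes, among them the peptide transporters, class I heavy chains and interferon signalling factors. With age 0 of 13 passed, and among the lowest p were those of the peptide trimmer Erap1 (-0.23) and Stat2 (-0.13). Between derivations 5 of 13 passed, against 22.0% of all genes, among them H2-K1, Tapbp, Tap2 and Irf9. Between strains 2 of 13 passed, against 29.7% of all genes. Irf1, a transcription factor that drives immune subunits, fell (-0.58, SE 0.11, adjusted p = 0.00376 by limma), as did Stat2 (-0.37, SE 0.11, adjusted p = 0.0382).

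The genes whose log2 RPM was most like that of Psmb8 over the 8 libraries included Alkbh3, Sod1 and BC005764 (Pearson r = 0.96 each) and Mboat1 (0.95). Over the 6 C57BL/6JBabr libraries r was 0.93 to 0.95 for these genes. Among members it was 0.869 for Psme2, 0.862 for Psmb9, 0.725 for Psmb5, 0.680 for Psmb10 and -0.821 for Psme4. These values describe 8 libraries that share age, derivation and strain, and the genes were picked from the highest of all genes.

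Of the proteins that work with the proteasome but fall outside the symbol rule, 26 were tested. With age 0 of 26 passed, and among the lowest p were those of Nfe2l2, at -0.19 (SE 0.11), and Pomp, the maturation factor of the core, at -0.08. Between derivations 4 passed, against 22.0% of all genes, among them Nfe2l1, the factor that induces proteasome genes when the proteasome is inhibited (adjusted p = 0.00855 by limma). Between strains 15 passed, 9 higher and 6 lower, against 29.7% of all genes, among them Vcp (-1.78), which unfolds ubiquitin-tagged proteins, and Adrm1 (-1.54), a ubiquitin receptor of the cap, both lower. With TMM factors none of the cofactors without a near-identical copy was higher.

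Promoter chromatin was taken from the deposited windows of 5000 bases, 1 per gene and longer than the promoters the study compared, of which 1 pooled value per age was deposited for each mark, so no test was possible. H3K4me3, which marks active promoters, exceeded 1 log2 RPM at 47 of the 49 genes, against 61.9% of all genes, with a median of 5.47 log2 RPM in young adult NSPCs. The exceptions were the tissue-specific Psma8 (-0.53 in young adult, -1.58 in aged) and Psmb11 (-0.41, -1.05), the genes that had few or no RNA reads. A window was called where its level exceeded 1 log2 RPM at either age and the ages differed by 1.5-fold or more, and 0 members met this rule, against 0.212% of all genes.

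Every one of the 47 genes above that level had more H3K4me3 in aged NSPCs, with a median difference of 0.23, but so did 90.9% of all genes, with a median of 0.21. After quantile scaling 23 of 49 members were higher, and their median difference was 0.00. Among the 47 genes above that level, the widest differences were those of Psmd5 (5.53 and 5.86), the ATPase Psmc1 (5.33 and 5.64) and Psmd8 (5.14 and 5.44). They are values of 1 pooled measurement per age, with no replicate check.

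H3K27me3, the mark of Polycomb repression, was above that level at 7 of the 49 genes, against 37.4% of all, and 4 of the 7 were higher in aged NSPCs, against 57.2%. They included Psmb8, at 1.75 log2 RPM in young adult and 1.92 in aged NSPCs, and Psmb9, at 2.10 and 2.05. The Input in these windows was 0.94 and 1.04 for Psmb8 and 1.30 and 1.49 for Psmb9. Psma8 and Psmb11 were also above the level, but Psmb11, at 1.09 and 1.18, lay below its Input of 1.17 and 1.24, so a value above the level does not by itself show the mark. Psmb9 had the highest young adult value of the 49 and was the lowest in RPKM of the genes tested. The constitutive Psmb3, at 19.6 RPKM, was at 1.89 in young adult NSPCs (Input 1.07), above Psmb8. The windows of Psmb8 and Psmb9 also carried H3K4me3. The other immune gene, Psmb10, was below the level in H3K27me3, at -0.40 in young adult and -1.18 in aged NSPCs. The Psmb9 window, like the Psmb9 sequence printed above, also holds the annotated start of Tap1. Tap1 encodes a peptide transporter, lies on the opposite strand and had more reads than Psmb9 in every RNA library. The marks of that window therefore cannot be assigned to Psmb9 alone.

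By the same rule 1 member was lower in H3K27me3 in aged NSPCs, against 0.780% of all genes. It was Psmd7, a non-ATPase of the cap, at 1.44 in young adult and 0.47 in aged NSPCs. With the Input subtracted no member stayed above the level, so none could be called by the rule. The Input of Psmd7 was 0.58 in young adult and 0.70 in aged NSPCs. Psmd9 (1.12 and 0.78) and Psmb3 (1.89 and 2.08) had the next widest differences among the 7 genes above that level.

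Methylation of the same windows was compared as methylated and unmethylated calls, with a lowest coverage of 21 calls per library and window in oxBS, which reads 5mC, and 29 in BS, which reads 5mC and 5hmC together. The median 5mC level was 24.7% over the 49 members and 34.0% over all genes. It was highest at Psma8, at 75.2% in young adult and 82.5% in aged NSPCs, and at Psmb11, at 71.8 and 73.1%. Pooled over the member windows it was 24.9, 25.0 and 23.2% in the young adult libraries and 27.2, 25.1 and 23.7% in the aged ones, so the ages overlapped.

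No member window passed the age test. In oxBS, edgeR called 0 of 49 member windows and 0 of all 23798 (0%), with 1 member at an unadjusted p under 0.05 against 4.76% of all. That member was Psma4, an alpha subunit, at 36.7, 42.4 and 29.0% in young adult and 18.8, 26.6 and 12.8% in aged NSPCs. The ages did not overlap, with a difference of -16.7 percentage points (unadjusted p = 0.00979, adjusted p = 0.994 by edgeR). In BS the difference at Psma4 was -5.52 points (unadjusted p = 0.528 by edgeR).

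The next lowest p in oxBS were those of Psmb2 and Psmd11. Psmb2 was at 55.4, 14.9 and 26.1% in young adult and 14.0, 19.1 and 22.4% in aged NSPCs, with the young adult library of derivation 1 far above the rest. Psmd11 was at 7.98, 25.0 and 19.0% against 38.3, 23.0 and 17.3%, with derivation 1 lowest among the young adult and highest among the aged libraries. In BS, edgeR called 0 of 49 member windows and 0 of all 24545 (0%), with 1 member at an unadjusted p under 0.05, against 4.47% of all. It was Psmf1, with a difference of -11.1 points.

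**Figure D5:**
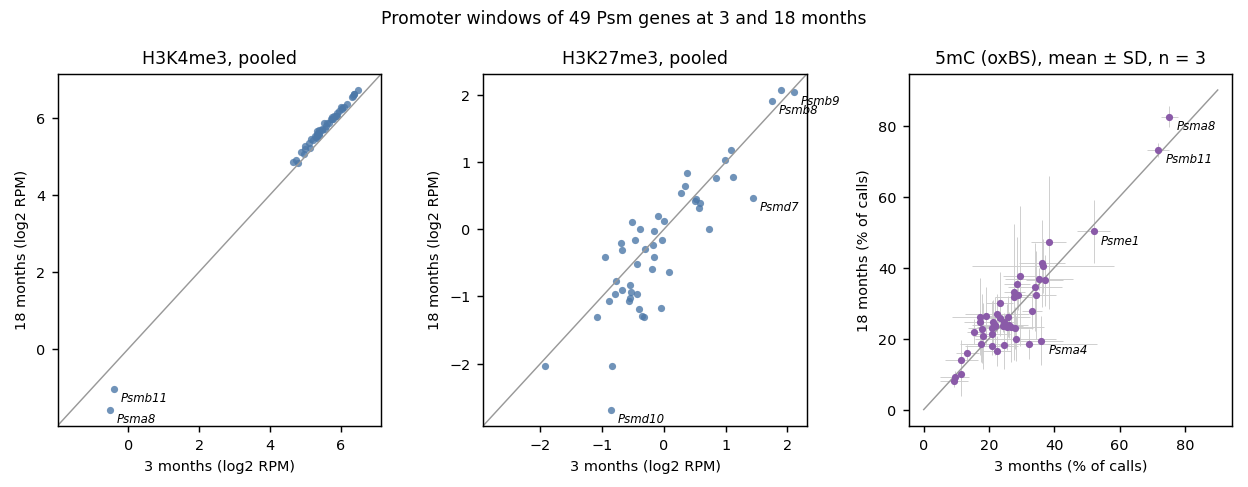
H3K4me3, H3K27me3 (log2 RPM, 1 pooled value per age) and 5mC (percent of calls, mean ± SD of 3 libraries) in the promoter window of each of the 49 genes, at 3 months on the horizontal and 18 months on the vertical axis, with the diagonal as the line of equal values. Psma8 and Psmb11 stand apart, with low H3K4me3 and high 5mC, and Psmd7 lies below the diagonal in H3K27me3.

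In the 250 bases before the start the members were close to unmethylated. The 44 promoters gave 24 methylated of 2403 oxBS calls in young adult NSPCs (0.999%, Wilson 95% interval 0.672 to 1.48%) and 22 of 1904 in aged NSPCs (1.16%, 0.764 to 1.74%). In BS it was 27 of 2674 (1.01%, 0.695 to 1.47%) and 40 of 2478 (1.61%, 1.19 to 2.19%). All promoters were at 12.2 and 12.6% in oxBS and 13.2 and 13.5% in BS. The intervals cover counting error alone.

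The exceptions were few. In oxBS 35 of the 44 promoters had no methylated call in young adult and 37 in aged NSPCs. Those at the printed sequences were near 0. Psmb5 had 0 of 101 and 0 of 46 calls methylated, which allows up to 2.97 and 6.52%. Psmb9 had 0 of 59 and 0 of 82, which allows up to 5.08 and 3.66%, and Psmb8 had 1 of 19 and 0 of 27. The other immune subunit, Psmb10, whose sequence is not printed, had few calls. It had 0 of 1 and 3 of 8 methylated in oxBS, and 3 of 13 and 4 of 10 in BS. Most methylated calls came from Psmb11, with 8 of 13 in young adult and 8 of 11 in aged NSPCs, and from the upstream of the 2 RefSeq starts of Psma6, with 9 of 10 and 7 of 8, while the other start of Psma6 had 1 of 132 and 0 of 40.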

How the data were processed

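RNA was sequenced in 8 libraries, and ChIP, BS and oxBS in 3 libraries per age. Per the submitters' processing notes, reads were trimmed with Trim Galore and mapped to GRCm38 with STAR 2.3.0 (RNA), Bowtie2 2.2.5 (ChIP) or Bismark 0.12.5 (methylation). The authors deposited RNA and ChIP values as log2 RPM, and methylation as counts of methylated and unmethylated calls per site, beside a percent column that was not used. RPM was recovered as whole reads for 100% of values within 0.02, checked for genes with up to 1000 reads. The value of 1 read, and with it each RNA library total, was inferred from the lowest value of the library, taken as 0.9 reads. ChIP was deposited as 1 pooled value per age.

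RNA was tested with limma 3.58.1 (trend, Benjamini-Hochberg over all genes that averaged -2 log2 RPM or more), and edgeR 4.0.16 and DESeq2 1.42.0 were run on the recovered reads. Calls in 5000-base windows, at least 10 per library, were tested with edgeR (adjusted p under 0.05 and 10 percentage points). The window of a gene was the one with the highest mean H3K4me3. RPKM used exon lengths of GENCODE vM21. Copies were found with minimap2 2.31-r1302 on GRCm38. The labels number the derivations at both ages without saying whether equal numbers share a day. Over all genes, deviations from the age means correlated at 0.659, 0.179 and 0.724 within numbers 1, 2 and 3, so fits with the number as a block are given beside those without it, which are the ones reported first. Over the 47 members the values were 0.239, -0.46 and 0.671. Replicates are separate derivations. Library depth was 16952486 to 41053972 reads for RNA and 13616283 to 30400033 calls for methylation. The RNA kit does not mark strand, so antisense reads cannot be told from sense reads.

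Members and lists were chosen with earlier results of these data known. Named were the catalytic and immune subunits, the activators, the 5 members with the lowest unadjusted p in each RNA test, the 3 with the widest ChIP difference per mark, the 3 with the lowest p in oxBS, the 3 lowest of each further list, and all members called. Alternatives were a replicate block, other scalings, no filter, other tools and leaving out each library. Some named genes are not reported here. Scripts were tested on simulated data. With no simulated effect of the replicate number, the RNA age fit without the block recovered 91 of 100 genes changed by 1 log2 unit. With such an effect (SD 0.3) it recovered 0 of 100, and the fit with the block recovered 88. A call of 0 genes without the block is therefore weak evidence of no difference. The oxBS test recovered 99% of windows changed by 30 percentage points, and 56% when calls were simulated with a correlation of 0.02.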

Additional observations from a re-analysis of the deposited data

How the results depend on the processing

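The replicate block changed no member's call in the age, age by strain and methylation tests. The median strain difference over the 46 proteasome genes went from 0.17 to 0.01 with TMM factors, -0.01 in edgeR and 0.00 in DESeq2, and strain calls over all genes went from 2697 higher and 1708 lower to 669 and 1952 with TMM factors. Of 168 alternatives to the main counts, 118 stayed within 1.5 times. In the RNA age test, the count over all genes was 0, and 74 with the replicate block (limma), 83 with the block in edgeR and 4 in DESeq2, with 0 members each. Between derivations, members called were 3 without the filter, 0 to 17 with a library left out, and all genes 1474 to 6831. Psmb10, not called, differed by -0.10 between derivations 2 and 1, and by 0.22 (called) without the aged library of derivation 2. Between strains, all genes and members called were 7679 and 26 with the replicate block, 2621 and 8 with TMM factors, 2572 and 8 in edgeR and 2868 and 8 in DESeq2, members were 8 without the filter, and with a library left out they were 1446 to 4629 and 4 to 15. Without the young adult or the aged C57BL/10 library, 1 library of that strain was left, and Psma5, Psma3 and Psmb3 stayed lower. For age by strain, the single gene became 36 with the replicate block, 4 without the filter and 0 with quantile scaling, with log2(RPM + 0.5), in edgeR and with any of the 6 C57BL/6JBabr libraries left out. For H3K4me3, all genes called were 5 at 2-fold, 149 over every window and 666 with the Input subtracted (2 members). For H3K27me3 they were 39 at 2-fold and 941 over every window, and the member count was 0 at 2-fold. It was also 0 with the Input subtracted, where no member stayed above the level. For methylation, windows called with a library left out were 0 to 1 in oxBS and in BS, and 1 in BS with the block. The causes of these changes were not tested, apart from fewer samples or genes entering. Age by strain in C57BL/6JBabr libraries alone was not run, since no interaction is left. Depth limits Psmb8 and Psmb9 (25 to 137 reads per library), and ChIP has no replicate error.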

Other observations

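Genes of ubiquitin, the tag that the proteasome recognises, differed more between strains than any member. Ubb was between 9.89 and 10.15 log2 RPM in the 6 C57BL/6JBabr libraries and at 6.71 and 6.72 in the young adult and aged C57BL/10 libraries, a difference of -3.29. Rps27a, a fusion of ubiquitin with a ribosomal protein, was between 6.80 and 7.31 against 2.89 and 2.72 (-4.23). The strains did not overlap for either gene.

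Rps27a has 11 near-identical copies elsewhere in the genome and Ubb has 1. Vcp (-1.78) and Adrm1 (-1.54), which also fell, have 1 copy each. Of the 20 cofactors without a copy, 9 were higher in C57BL/10 in the deposited scaling and 0 with TMM factors. Whether the counting of shared reads has a part in this was not tested.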
